A study of Mus musculus with 2 samples.

Results

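The 6 genes described here encode the platelet-derived growth factor (PDGF) ligands and receptors. They are the ligand genes Pdgfa, Pdgfb, Pdgfc and Pdgfd and the receptor genes Pdgfra and Pdgfrb, chosen by name out of 52636 genes in each count table. Their expression is given from RNA-seq of 2 libraries that the labels call retina, from 8-week-old C57BL/6 mice, each made from the pooled retinas of 3 mice. One library came from mice lacking the microRNA miR-29a (the library labelled KO) and the other from wild-type mice (the library labelled WT). The labels do not say how the knockout was made, and they name no other allele and no treatment. Pdgfc and Pdgfrb are known targets of miR-29. With 1 library per genotype there was no replicate, so no test between the genotypes was possible, and every difference is one between these 2 libraries.

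PDGF ligands are secreted dimers that bind receptor tyrosine kinases at the cell surface and drive the division and migration of mesenchymal cells. PDGF-A and PDGF-C act through the alpha receptor, PDGF-D acts mainly through the beta receptor, and PDGF-B binds both. In retina, PDGF-A made by ganglion cells guides astrocytes that carry the alpha receptor, and PDGF-B made by endothelial cells recruits pericytes that carry the beta receptor.

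The libraries differed from their labels in cell content. The library labelled KO held 24876925 counts and the library labelled WT 26805902. Of 18 retinal neuron markers, 14 had fewer than 50 counts in both libraries, and Nrl, Grm6, Lhx1, Gad1 and Pou4f2 were among those with 0 in both. The median of these markers was 0.0402 CPM (the count scaled by the library's total) in the library labelled KO and 0.0373 CPM in the library labelled WT, whereas the median of 12 fibroblast markers was 1192 and 1131 CPM. Of the astrocyte markers, Pax2 and Aqp4 had 0 counts in both and Gfap had 1 count in the library labelled KO and 5 in the library labelled WT. The X-inactivation RNA Xist had 0 counts in the library labelled KO and 4288 in the library labelled WT, and 4 Y-linked genes summed to 1092 and 164 counts, so the sexes pooled and the genotype cannot be told apart. Mir29a itself had 0 counts in both libraries, which checks neither label because a precursor that short is seldom counted by such a library. In bulk RNA, a change in the number of cells of a type and a change in RNA per cell cannot be told apart.

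MicroRNAs of the miR-29 family recognise their targets through bases 2 to 8, the seed, which pairs with the heptamer TGGTGCT in a 3' UTR. The 3 mature forms are shown because they share this seed (capitals), so that miR-29b and miR-29c can read the same sites where miR-29a is absent. The sequences are from RefSeq (GRCm38.p6). The miR-29a form lies at chr6:31062673-31062694 on the minus strand, and miR-29b also comes from that cluster, at chr6:31063025-31063047. A second copy of miR-29b lies at chr1:195037091-195037113 and miR-29c at chr1:195037600-195037621, both on the plus strand.
mmu-miR-29a-3p: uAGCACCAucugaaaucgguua
mmu-miR-29b-3p: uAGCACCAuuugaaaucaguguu
mmu-miR-29c-3p: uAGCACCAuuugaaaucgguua

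The heptamer was present in the longest annotated 3' UTR of 5 of the 6 genes, all but Pdgfd. It was found in 16.1% of the 11585 protein-coding genes searched, and in 13.0% to 28.3% of those whose 3' UTR was within 20% of the length of a member's. Pdgfc had the only 8-mer among the members, the heptamer followed by an A, a form held by 3.35% of the genes searched. Pdgfra had 2 heptamers, as did 2.62% of genes with that many or more. The search read the transcript strand only, and a match describes letters and not a working site. The sites outside Pdgfrb are shown with the heptamer in capitals, after the 22 bases before it and before the base after it, written as DNA in the direction of the transcript (GENCODE M21, GRCm38). They lie at chr5:138977140-138977169 (minus strand) for Pdgfa, chr15:79997147-79997176 (minus strand) for Pdgfb and chr3:81213478-81213507 (plus strand) for Pdgfc. The Pdgfra sites lie at chr5:75196343-75196372 and chr5:75196504-75196533 (plus strand).
Pdgfa: acattcctgaacatactatgtaTGGTGCTt
Pdgfb: gatgcctgattcggacggccaaTGGTGCTt
Pdgfc: acatatgtatttcttccttgtaTGGTGCTa
Pdgfra, site 1: actgcaaaccctgagaccacaaTGGTGCTg
Pdgfra, site 2: gaagctatatatatgaactgccTGGTGCTc

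The sites differed in place and in the length of their pairing. The Pdgfa heptamer began 70 bases after the stop codon of a 3' UTR of 1203 bases, and the Pdgfb heptamer 128 bases into 1408. The Pdgfc 8-mer began at base 922 of 1462. The Pdgfra sites were at bases 1265 and 1426 of 3115. Of its 4 annotated 3' UTRs, 2 held a heptamer. The Pdgfrb heptamer, at base 1662 of 1678, ended 10 bases before the annotated end of the transcript. Unbroken pairing with miR-29a ran on to base 9 of the microRNA at the Pdgfa, Pdgfb, Pdgfc and first Pdgfra sites, and stopped at base 8 at the second Pdgfra site and in Pdgfrb. The map of the 3' UTRs shows that the sites had no common position.

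**Figure D1:**
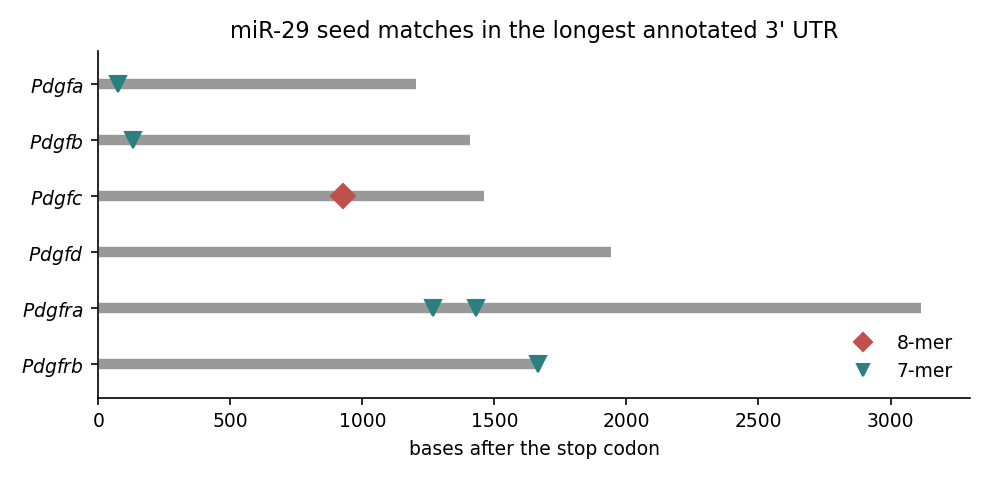
Grey bars show the longest annotated 3' UTR of each gene, in bases after the stop codon, with triangles for heptamer (7-mer) matches to the miR-29 seed and a diamond for the 8-mer. Pdgfc has the 8-mer at base 922, Pdgfra has 2 matches, Pdgfrb has its match near the end and Pdgfd has none.

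All 6 genes were measured above the count minimum of 50 in the higher library. Pdgfb and Pdgfc reached 2-fold higher in the library labelled KO, 0 reached 2-fold lower and 4 reached neither. Here and below a gene is counted as 2-fold higher or lower when its log2 ratio, taken after adding 0.5 to each CPM, reaches 1 or -1. Over all 12382 genes past the minimum, 4.47% were that much higher and 2.82% that much lower (7.29% in either direction). The median log2 ratio was 0.80 for the 6 genes, and 0.06 for all genes. At 1.5-fold, 4 of the 6 were higher and 0 lower, where 13.3% and 8.88% of all genes were (22.2% in either direction). At 4-fold, 0 of the 6 were higher or lower, where 0.832% of all genes were higher and 0.468% lower (1.3% in either direction). The 4 ligand genes had a median log2 ratio of 1.17, while the receptor genes lay on either side of 0. Counting intervals (95%, exact Clopper-Pearson) of the fold left out 1 for all 6 genes, but they cover counting error only and hold no spread between animals.

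**Figure D2:**
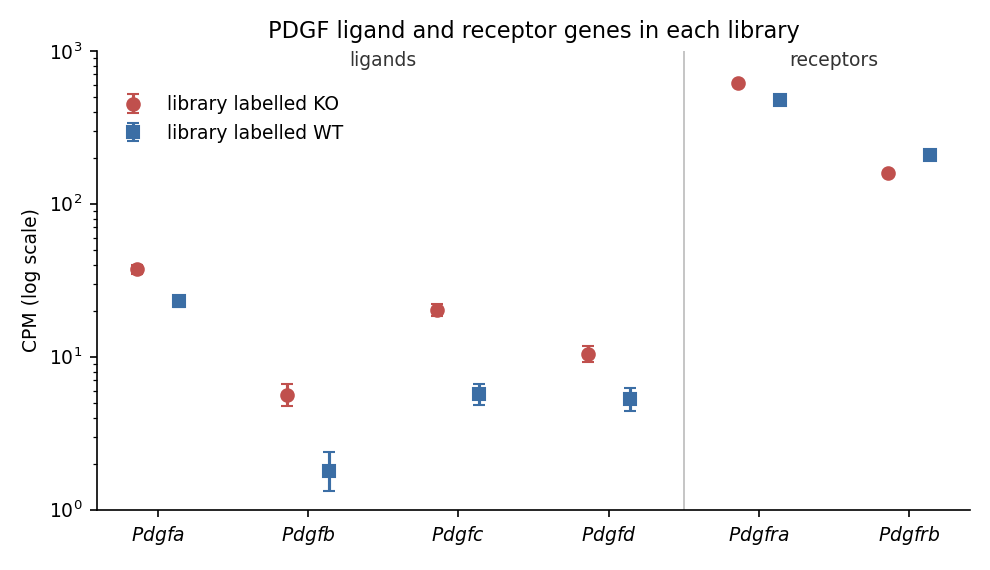
Level of each gene in CPM, on a log axis, in the library labelled KO (circles, left of each pair) and the library labelled WT (squares); bars are 95% counting intervals. The ligand genes lie between 1.79 and 37.3 CPM and all are higher in the library labelled KO; Pdgfra is higher and Pdgfrb lower in that library.

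Among the ligands, Pdgfc had the highest fold. Pdgfc (ENSMUSG00000028019, chr3:81036416-81214040, GRCm38) encodes PDGF-C, which is secreted in a latent form with a CUB domain that must be cut off before it can bind the alpha receptor. It had 500 counts in the library labelled KO and 152 in the library labelled WT, or 20.1 CPM (18.4 to 21.9) and 5.67 CPM (4.80 to 6.65). The intervals did not overlap, and the fold was 3.54 (2.95 to 4.28). Its log2 ratio of 1.74 was above that of 98.7% of genes past the minimum. Of the 388 searched genes with an 8-mer, Pdgfc included, 24 were 2-fold higher (6.19%). Of all searched genes with a heptamer, 8-mers included, 3.98% were 2-fold higher, against 4.53% of genes with no heptamer. The members other than Pdgfc that have a site hold the 7-mer alone.

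Pdgfb (ENSMUSG00000000489, chr15:79995874-80014977) encodes PDGF-B, known from endothelial cells, platelets and macrophages. It was the least abundant member, with 140 counts in the library labelled KO and 48 in the library labelled WT, or 5.63 CPM (4.73 to 6.64) and 1.79 CPM (1.32 to 2.37). It was 3.14-fold higher in the library labelled KO (2.25 to 4.46), and a minimum of 200 counts would leave it out. The Pdgfb interval is wide because 48 counts carry a large counting error, and it overlapped that of Pdgfc, so the larger of the ratios of these genes could not be told at this depth.

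Pdgfd (ENSMUSG00000032006, chr9:6168584-6378850) encodes PDGF-D, also secreted in a latent form. It had 260 counts in the library labelled KO and 141 in the library labelled WT, or 10.5 and 5.26 CPM. Its fold of 1.99 (1.61 to 2.46) and log2 ratio of 0.93 placed it just under the 2-fold threshold. Pdgfd is the member without a miR-29 heptamer. Its ratio lay between those of Pdgfa and Pdgfb, which have one, but this order was not fixed. After correction for GC content and length its log2 ratio was 0.60, below the 0.73 of Pdgfa and the 1.72 of Pdgfb.

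Pdgfa (ENSMUSG00000025856, chr5:138976014-138997370) encodes PDGF-A and was the most abundant ligand gene. It had 927 counts in the library labelled KO and 618 in the library labelled WT, or 37.3 CPM (34.9 to 39.7) and 23.1 CPM (21.3 to 24.9). The intervals did not overlap, and Pdgfa was 1.62-fold higher in the library labelled KO (1.46 to 1.79). An antisense gene, 6330403L08Rik, overlaps the 5' part of Pdgfa and had 255 and 156 counts. The library kit does not mark strand, so reads from the overlap cannot be assigned to one of them.

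The receptor genes were far more abundant than the ligand genes and differed less between the libraries. Pdgfra (ENSMUSG00000029231, chr5:75152292-75198215) encodes the alpha receptor, a widely used marker of fibroblasts. It had 15379 counts in the library labelled KO and 12721 in the library labelled WT, or 618 CPM (608 to 628) and 475 CPM (466 to 483). The alpha receptor gene was 1.30-fold higher in the library labelled KO (1.27 to 1.33), a log2 ratio of 0.38 that 75.7% of genes lay under.

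Pdgfrb (ENSMUSG00000024620, chr18:61045150-61085061) encodes the beta receptor, a marker of pericytes and other mural cells that fibroblasts also express. It had 3939 counts in the library labelled KO and 5569 in the library labelled WT, or 158 CPM (153 to 163) and 208 CPM (202 to 213). Pdgfrb alone of the 6 genes was lower in the library labelled KO. The difference was 1.31-fold (1.26 to 1.37), a log2 ratio of -0.39. The 2 known miR-29 targets among the members thus had ratios of opposite sign.

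**Figure D3:**
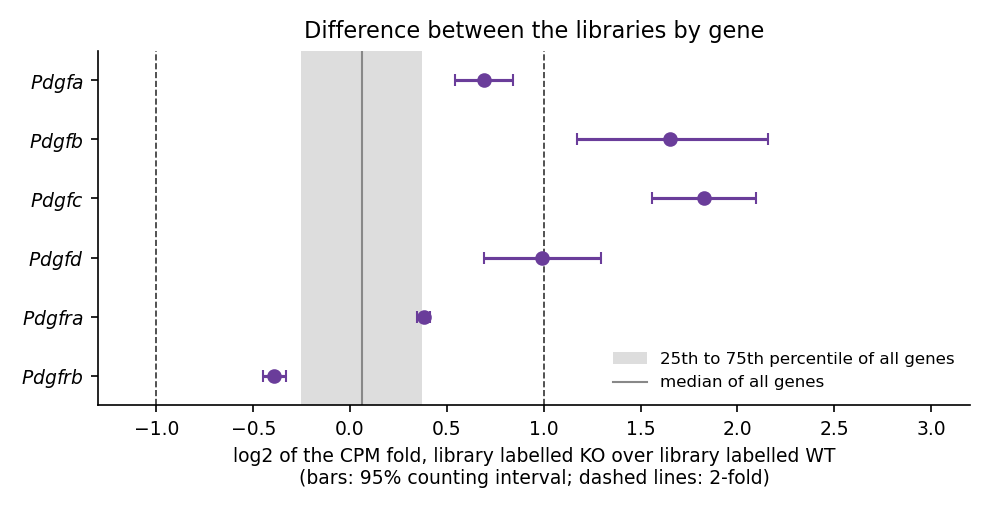
Log2 of the CPM fold of each gene, library labelled KO over library labelled WT, with 95% counting intervals; the grey band runs from the 25th to the 75th percentile of the log2 ratio of all genes past the minimum and dashed lines mark 2-fold. Pdgfb and Pdgfc lie wholly beyond 2-fold higher, Pdgfd lies across that line and Pdgfrb lies below 0.

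The members were also set against one another, since a ratio between genes of one library does not depend on its depth. Of 15 pairs, the ratio of one gene to the other differed between the libraries beyond counting error for 13. The exceptions were Pdgfb with Pdgfc, with a ratio of ratios of 0.887 (0.602 to 1.32), and Pdgfa with Pdgfd at 0.814 (0.642 to 1.03). Pdgfc relative to Pdgfrb was 4.65 times as high in the library labelled KO as in the library labelled WT (3.85 to 5.64), the widest contrast of the 15. Pdgfra relative to Pdgfrb was 1.71 times as high (1.63 to 1.79). Such ratios can still carry differences between the libraries by GC content and length, which the intervals do not cover. After correction for GC content and length the log2 ratios were 1.72 for Pdgfb, 1.65 for Pdgfc, 0.21 for Pdgfra and -0.26 for Pdgfrb. Pdgfb, and not Pdgfc, then lay farthest from Pdgfrb.

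Levels of different genes were compared on the authors' FPKM, which are scaled by gene length. In the library labelled KO, Pdgfra came first with 62.8 FPKM, followed by Pdgfrb (29.4), Pdgfa (12.2), Pdgfc (4.02), Pdgfd (3.37) and Pdgfb (1.96). In the library labelled WT, Pdgfra had 50.1 FPKM, Pdgfrb 40.1, Pdgfa 7.82, Pdgfd 1.76, Pdgfc 1.18 and Pdgfb 0.649. Pdgfc and Pdgfd thus changed places in FPKM. Their FPKM counting intervals touched in the library labelled KO (3.67 to 4.39 for Pdgfc and 2.97 to 3.81 for Pdgfd). Their order there is thus not fixed. In the library labelled WT Pdgfc (0.999 to 1.38) lay under Pdgfd (1.48 to 2.08). These intervals do not cover the gene lengths used for FPKM. In CPM, not scaled by length, Pdgfc was above Pdgfd in both libraries. The values were 20.1 and 10.5 CPM in the library labelled KO. They were 5.67 and 5.26 CPM in the library labelled WT, where the intervals overlapped.

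The ligand mixture and the receptor mixture both differed in make-up. Summed over the 4 ligand genes there were 21.5 FPKM in the library labelled KO and 11.4 in the library labelled WT. Pdgfa gave 56.5% of this sum in the library labelled KO and 68.5% in the library labelled WT, while Pdgfc gave 18.7% and 10.3%, Pdgfb 9.12% and 5.69% and Pdgfd 15.7% and 15.5%. The receptor sum was nearly equal in FPKM, at 92.2 in the library labelled KO and 90.2 in the library labelled WT. In CPM the receptor sum was 1.14-fold higher in the library labelled KO (1.12 to 1.16), on 19318 and 18290 counts. Within the FPKM sum Pdgfra gave 68.1% and 55.5%. In FPKM the receptor genes exceeded the ligand genes 4.28-fold in the library labelled KO and 7.90-fold in the library labelled WT. In counts, which can carry an interval, the shares of Pdgfa, Pdgfb, Pdgfc and both receptors differed in the same direction. Pdgfra had 79.6% (79.0 to 80.2) and 69.6% (68.9 to 70.2) of receptor counts. The Pdgfb intervals overlapped (6.48% to 8.98% in the library labelled KO, 3.71% to 6.58% in the library labelled WT). Pdgfd had 14.2% and 14.7% of ligand counts, the other direction from FPKM, with overlapping intervals.

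**Figure D4:**
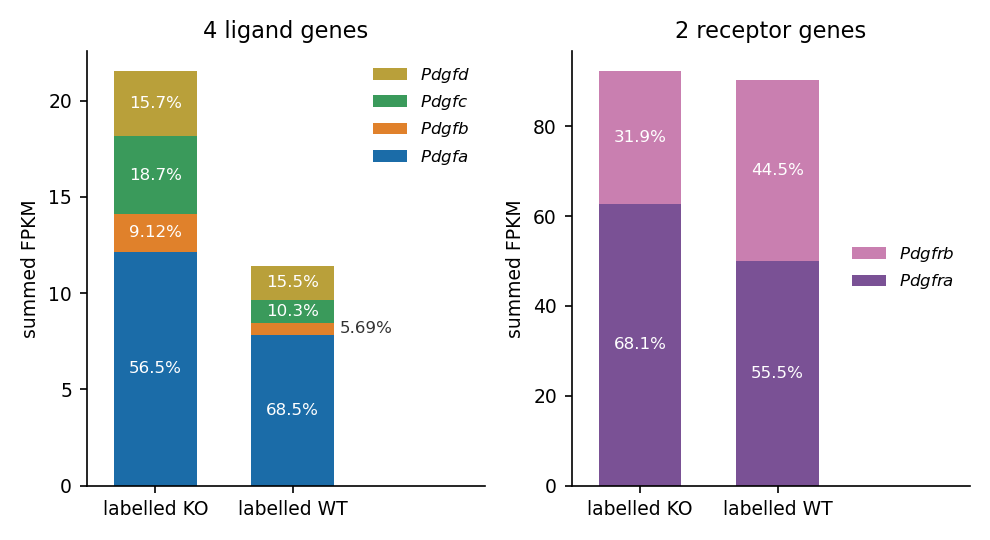
Summed FPKM of the 4 ligand genes and of the 2 receptor genes (separate axes), split by gene, in the library labelled KO (left bars) and the library labelled WT (right bars), with each gene's percent of the sum. The ligand sum is 21.5 against 11.4 FPKM, and the receptor sum 92.2 against 90.2 FPKM with a larger share of Pdgfra in the library labelled KO.

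Cell type markers that could carry these genes moved between the libraries in different ways. Their counts are to be read beside the 4.47% of all genes that were 2-fold higher and the 2.82% that were lower. Of 13 macrophage markers past the minimum, 12 were 2-fold higher in the library labelled KO, with a median log2 ratio of 1.96. Their list of 14 summed to 1623 CPM in the library labelled KO and 518 CPM in the library labelled WT. The lysozyme gene Lyz2 was the most abundant, with 21052 and 5827 counts. Fcer1g, a signalling chain of Fc receptors, was 5.70-fold higher (4.75 to 6.88) and the mannose receptor gene Mrc1 5.10-fold (4.49 to 5.81). The exception was the lipopolysaccharide co-receptor gene Cd14, with a log2 ratio of -0.16. Endothelial markers, at much lower levels, were 2-fold higher for 5 of 10 (median log2 ratio 1.08; 72.0 and 48.0 CPM summed over 12). The endothelial cadherin gene Cdh5 had 576 and 175 counts and Egfl7, a secreted endothelial protein gene, 295 and 463. Of the platelet list, which summed to 50.4 and 27.6 CPM, 2 of 3 genes past the minimum were 2-fold higher. They were the chemokine genes Pf4 (799 and 152 counts), which macrophages also express, and Ppbp (129 and 35), while Itga2b had 288 and 518 counts and Gp9 had 0 in both. The part of these cells in the Pdgfb and Pdgfc values was not tested.

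Markers of the fibroblasts and mural cells that carry the receptors had medians nearer to 0. Of 12 fibroblast markers 0 were 2-fold higher and 2 were lower, where 4.47% and 2.82% of all genes were. Their median log2 ratio was 0.02. The list summed to 18417 CPM in the library labelled KO and 16632 CPM in the library labelled WT. The lower genes were Pi16 (279 and 2003 counts) and Dpt (265 and 627), and the matrix proteoglycan gene Dcn had a log2 ratio of 0.93. Of the 7 mural markers past the minimum 0 passed 2-fold in either direction, and the median log2 ratio was -0.28. Their list of 12 summed to 334 and 325 CPM. The Notch receptor gene Notch3 had 246 and 451 counts, Acta2, the smooth muscle actin gene, 3270 and 2179, and the aminopeptidase gene Anpep 3384 and 4432. The pericyte genes Rgs5 (41 and 27 counts), Kcnj8 (7 and 4) and Higd1b (0 in both) had few counts or none. Of the oligodendrocyte lineage, whose precursors carry the alpha receptor, Olig1, Olig2 and Mog had 0 counts in both, and the list's sum of 43.5 and 51.3 CPM came mostly from the proteoglycan gene Cspg4 (1018 and 1340 counts). The astrocyte list summed to 677 and 488 CPM, mostly from the gap junction gene Gja1, and 0 of its 5 measured genes passed 2-fold. The retinal neuron list summed to 120 and 101 CPM, with 0 of 4 measured genes past 2-fold and the kinase gene Prkca as its most abundant.

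Genes that process or bind the ligands differed little as a group. Of 12 past the minimum 1 was 2-fold higher, 0 were lower and the median log2 ratio was 0.07. That 1 gene was A2m, a protease inhibitor that binds PDGF, on 69 and 17 counts (4.37-fold, 2.54 to 7.93). It was not counted with a pseudocount of 2 CPM, with FPKM or with a minimum of 200 counts, and 1 of 12 is to be read beside the 4.47% of all genes. Plau, the urokinase that cuts PDGF-D, had 2208 and 1220 counts and a log2 ratio of 0.96, just under the threshold. Plat, the tissue plasminogen activator that cuts PDGF-C, had 1202 and 1711 counts and a log2 ratio of -0.40. Sparc, a matrix protein that binds PDGF-B and is itself a miR-29 target, had a log2 ratio of 0.76, and the receptor partner gene Lrp1 -0.14.

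Signalling genes just below the receptors showed no member past the threshold. Of 22 adaptors, kinases and other effectors 0 were 2-fold higher or lower, where 7.29% of all genes were. Their median log2 ratio was 0.06, equal to that of all genes. The highest was the phosphoinositide 3-kinase subunit gene Pik3cb, with 174 and 94 counts (log2 ratio 0.90). The phosphatase gene Ptpn11 had a log2 ratio of 0.59 and the adaptor gene Crk 0.48. The most abundant, the adaptor gene Shc1 and the transcription factor gene Stat3, had log2 ratios of -0.35 and -0.02. Of these 22 genes 5 hold the heptamer, among them Pik3r1, a published miR-29 target with a log2 ratio of 0.01.

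Of 13 genes that switch the receptors off, 1 was 2-fold lower and 0 were 2-fold higher, where 2.82% and 4.47% of all genes were. There were 10 log2 ratios above 0, and the median was 0.36, against 0.06 for all genes. The lower gene was Spry1, a feedback inhibitor of receptor tyrosine kinases that holds a heptamer, with 352 and 853 counts (2.25-fold lower, 1.98 to 2.55). It no longer reached 2-fold after correction for GC content and length, which left 0 genes lower. Ptprj, a receptor-type phosphatase, had 443 and 237 counts and a log2 ratio of 0.97. The phosphatase gene Acp1 had a log2 ratio of 0.61, and the abundant feedback genes Errfi1 and Socs3 had 0.54 and 0.06.

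Among genes known to be induced by PDGF in fibroblasts were several of the larger differences. Of 22 measured, 7 were 2-fold higher in the library labelled KO and 0 were lower, and the median log2 ratio was 0.52. Over all genes past the minimum 4.47% were higher and 2.82% lower, with a median of 0.06. The list was chosen with earlier results of these data known, so this comparison is a description and tests nothing. The number higher was 6 with TMM, median-of-ratios factors or the GC and length correction. It was 5 with FPKM or a pseudocount of 2 CPM. The higher genes were the monocyte chemokine genes Ccl7 (6.47-fold, 5.92 to 7.06) and Ccl2 (5.86-fold, 5.63 to 6.11), the prostaglandin synthase gene Ptgs2 (3.09-fold, 3.03 to 3.15), the growth factor gene Hbegf, the cytokine gene Il6 and the transcription factor genes Egr3 and Klf10. Ptgs2 rested on 41407 counts in the library labelled KO and 14452 in the library labelled WT. The abundant chemokine gene Cxcl1 had 28962 and 18147 counts and a log2 ratio of 0.78. Of the 22 genes 7 had log2 ratios below 0, the lowest of them the phosphatase gene Dusp1 at -0.98, which was counted as 2-fold lower with TMM, median-of-ratios factors or FPKM. The others were Jun (-0.45), Fos (-0.31), Ier2 (-0.31), Junb (-0.28), Fosl1 (-0.07) and Fosb (-0.06). Hbegf, Il6, Egr3, Klf10 and the 7 genes below 0 are named here after their values were seen. Many of the list's genes also respond to inflammatory signals, and the macrophage markers above were higher in the same library. The part of either was not tested.

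**Figure D5:**
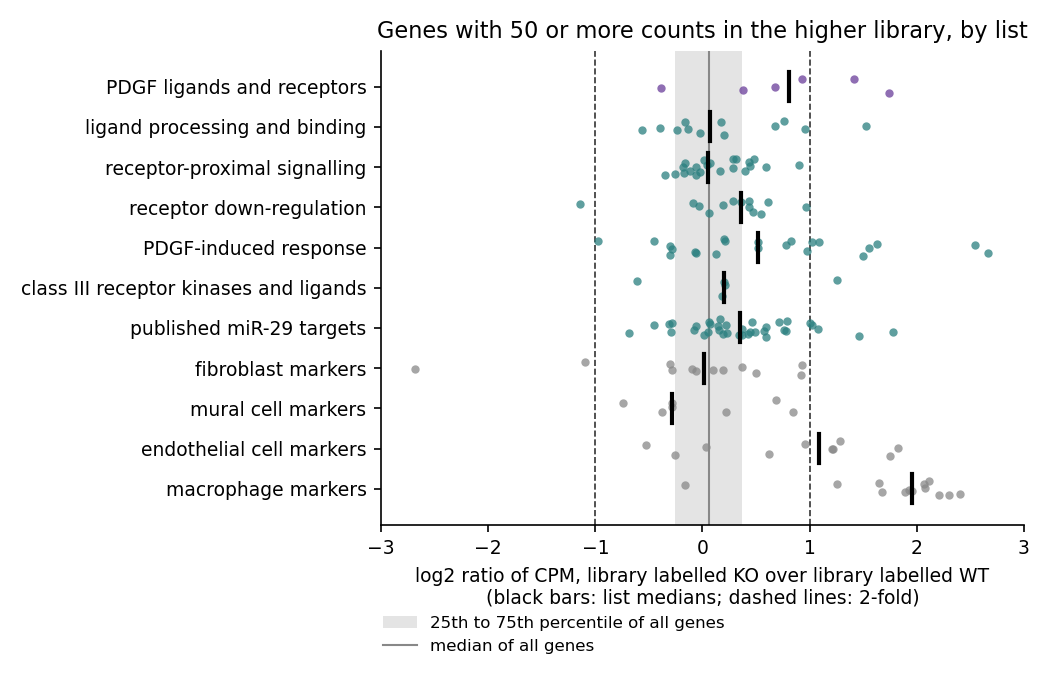
Log2 ratio of CPM, library labelled KO over library labelled WT, of each gene past the minimum, by list; black bars are list medians, the grey band runs from the 25th to the 75th percentile of all genes and dashed lines mark 2-fold. The PDGF genes have a median of 0.80, signalling genes sit at the median of all genes, and macrophage markers have a median of 1.96.

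The receptors closest to the PDGF receptors in structure, the other class III receptor kinases, were scarce except for Csf1r, which encodes the macrophage growth factor receptor. It had 624 counts in the library labelled KO and 274 in the library labelled WT (2.45-fold, 2.13 to 2.84). Kit had 13 and 15 counts and Flt3 4 and 3. Of the 5 genes of this group past the minimum Csf1r alone was 2-fold higher and 0 were lower (median log2 ratio 0.20). Of all genes, 4.47% were 2-fold higher and 2.82% lower. The ligand gene Csf1 was abundant in both, with 26843 and 25427 counts, Kitl had 4322 and 4021, and Flt3l 29 and 55.

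Csf1r is also the neighbour of Pdgfrb, starting 15.5 kb after its end on the same strand, and its log2 ratio of 1.25 had the opposite sign. The gene on the other side of Pdgfrb, Cdx1, had 0 counts in both. The protein-coding genes nearest to Pdgfra, Gsx2 and Kit, had 0 in both and 13 and 15 counts. Beside Pdgfb, Cbx7 had 152 and 222 counts and the ribosomal protein gene Rpl3 a log2 ratio of -0.26. Prkar1b, 19.9 kb from Pdgfa, had a log2 ratio of 0.12 (2984 and 2968 counts), and Gm5294 on its other side had 0 counts in both. Ctso and Glrb beside Pdgfc had 420 and 412 counts and 13 and 16 counts, and Casp12 and Dync2h1 beside Pdgfd had log2 ratios of 0.02 and -0.29. Of the other annotated genes within members, Ddi1 in Pdgfd, Mir7213 in Pdgfb and Gm42802 in Pdgfra had 0 counts in both, Gm16000 in Pdgfc had 0 and 3, Gm42803 in Pdgfra 0 and 2, and Mir7025 in Pdgfra 13 and 13.

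Of 36 other published miR-29 targets past the minimum, 5 were 2-fold higher in the library labelled KO and 0 lower, where 4.47% and 2.82% of all genes were. The number higher was 3 with TMM, median-of-ratios factors or FPKM, and 2 after correction for GC content and length. The 36 targets had a median log2 ratio of 0.35. This list too was chosen with earlier results of these data known, which leaves the comparison with all genes a description. The heptamer was present in 32 of them. Pdgfc, at 1.74, lay beside the highest of them, the DNA glycosylase gene Tdg (432 and 126 counts, log2 ratio 1.78). The collagen genes Col5a3 and Col5a2 followed with 1.46 and 1.08, and Col1a2, the most abundant with Sparc, had -0.06. Pdgfrb, at -0.39, lay among the 7 targets below 0, whose lowest had -0.68.

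The genes most like each member were found by the distance between log2 CPM values over the 2 libraries, and with only 2 libraries the likeness says little. For Pdgfc they were Cyth4 (516 and 151 counts, distance 0.05) and Myo1f (539 and 160, 0.13). The genes nearest to Pdgfb were Nlrp3 (143 and 47, 0.04) and Ncf1 (136 and 48, 0.04). For Pdgfa they were Ranbp9 and Rspo2, for Pdgfd Mospd2 and Garem1, for Pdgfra Cd9 and Ywhag and for Pdgfrb Chtf8 and Irx1, at distances from 0.01 to 0.07.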

How the data were processed

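For each library the authors deposited a table of 52636 genes with counts and FPKM, per the file headers. Reads were aligned with HISAT2 to mm10, the GRCm38 build, as named by the submitters' processing notes. The counter, its annotation and strand setting and the FPKM total were not given in the sources used here. Per the labels' protocols, the NEBNext Ultra kit was used on RNA depleted of ribosomal RNA (Ribo-Zero). The authors' counts were used as deposited and divided by the library total to give CPM. The authors' FPKM served to compare levels between genes and as an alternative; FPKM folds were 0.962 times the CPM folds. The 4 genes whose ratio of count to FPKM differed between tables by more than 1% were left out.

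Each log2 ratio is log2 of (KO CPM + 0.5) over (WT CPM + 0.5). Lists and calls use genes that reach 50 counts in at least 1 library, and folds have no pseudocount. With 1 library per group no test was made and no p-value is given. Intervals are exact (Clopper-Pearson, 95%; conditional odds ratio for pairs of members) and hold counting error alone: without molecular identifiers, reads are not independent molecules. A count of 0 allows up to 3 counts, or 0.121 CPM (KO) and 0.112 CPM (WT). Genes were called at a log2 ratio of 1 or -1.

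GENCODE M21 (GRCm38), which holds 52403 of the 52636 identifiers, gave positions and 3' UTRs, and RefSeq the microRNAs. The members and lists were chosen with earlier results of these data known. Named genes were the 6 members; of each list the 3 with the largest absolute log2 ratio and the 2 most abundant; the 2 protein-coding genes nearest to each member in log2(CPM + 0.5); neighbouring and overlapping genes; and markers at 0. Some further genes are given as examples within a list, chosen after their values were seen. Alternatives were pseudocounts of 0.1 and 2 CPM, scaling by TMM (edgeR) or by median-of-ratios factors, a library total that leaves out the 20 most counted genes together with mitochondrial and rRNA genes, FPKM, subtraction of the medians of 10 GC and 10 length bins, a minimum of 200 counts or none, and thresholds of 1.5-fold and 4-fold. The procedure was run on simulated counts with Poisson counting error alone. They held no spread between animals, so they cannot show how the ratios would vary between animals. The tools were edgeR 4.0.16 under R 4.3.3, and scipy 1.17.1, pandas 2.3.3 and numpy 2.4.6 under Python 3.11.15, with figures by matplotlib 3.10.9.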

Additional observations from a re-analysis of the deposited data

How the results depend on the processing

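No member's ratio changed sign under any of the 7 alternative scalings, pseudocounts, units and corrections, and of those 42 values 32 stayed within the counting interval and on the same side of 2-fold. A pseudocount of 2 CPM gave log2 ratios of 1.01 for Pdgfb and 1.53 for Pdgfc, and the authors' FPKM 1.10 for Pdgfb, 1.43 for Pdgfc and 0.32 for Pdgfra. Median-of-ratios factors gave 0.32 for Pdgfra and -0.46 for Pdgfrb. Subtracting the GC and length bins gave 0.60 for Pdgfd, 0.21 for Pdgfra and -0.26 for Pdgfrb; over all genes the log2 ratio correlated with transcript GC content (Spearman's rho -0.441 across genes, which are not replicates). No scaling moved the median of all genes by more than the -0.06 of median-of-ratios factors. Members 2-fold higher numbered 1 with a minimum of 200 counts, which removes Pdgfb, 4 at a threshold of 1.5-fold and 0 at 4-fold. Over all genes, the count higher was 351 with a pseudocount of 2 CPM, 322 with FPKM, 340 with a minimum of 200 counts, 1645 at 1.5-fold and 103 at 4-fold, and the count lower 214 with a pseudocount of 2 CPM, 213 with a minimum of 200 counts, 1100 at 1.5-fold and 58 at 4-fold, against 554 higher and 349 lower.

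A2m, the single ligand-processing gene counted as higher, was lost (0 higher) with a pseudocount of 2 CPM, FPKM or a minimum of 200 counts. Genes that switch receptors off had 1 higher with a pseudocount of 0.1 CPM and 0 lower with the GC and length correction. PDGF-induced genes had 1 lower with TMM, median-of-ratios factors and FPKM. They had 6 higher with TMM, median-of-ratios factors and the GC and length correction, and 5 with FPKM and a pseudocount of 2 CPM. Of the published targets 3 were higher with TMM, median-of-ratios factors and FPKM, and 2 with the GC and length correction. In counts in place of FPKM, the shares of Pdgfa, Pdgfb and Pdgfc were 50.7%, 7.66% and 27.4% of ligands in the library labelled KO, those of Pdgfa and Pdgfc 64.4% and 15.8% in the library labelled WT, and those of Pdgfra and Pdgfrb 79.6% and 20.4% of receptors in the library labelled KO and 69.6% and 30.4% in the library labelled WT; counts favour long transcripts. The heptamer was in 5 members also when any annotated 3' UTR was searched. Depth limits Pdgfb most, at 48 counts in the library labelled WT. No paired analysis was possible because each group has 1 library.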

Other observations

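A gene outside the 6, Pdgfrl, encodes a secreted protein that resembles the ligand-binding part of the PDGF receptors and has no kinase. It was picked after its values were seen. Pdgfrl (ENSMUSG00000031595, chr8:40926212-40990785, GRCm38) had 921 counts in the library labelled KO and 190 in the library labelled WT, or 37.0 and 7.09 CPM. It was 5.22-fold higher in the library labelled KO (4.46 to 6.14), and its log2 ratio of 2.31 was above that of 99.5% of genes past the minimum and above that of every PDGF ligand and receptor gene. Per length it reached 12.1 FPKM in the library labelled KO, near Pdgfa there, and 2.4 FPKM in the library labelled WT.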
